A study of Mus musculus with 16 samples.

Results

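Transcripts of 3 chromatin regulators, Sin3a, Tet1 and Kdm5a, were followed in mouse CD4 T cells that had or had not lost Sin3A, before and after polarization to Th17 cells. The genes were chosen by symbol, and they are 3 of the 8552 named genes in the deposited table. Values were restored for all 3 genes in all 16 libraries. Every mouse was C57BL/6 J with the genotype Rosa26-CreERT2 +/- Sin3AF/F and about 2 months old, so sufficient and deficient cells alike carried the floxed alleles and a Cre recombinase that is expressed widely and acts once tamoxifen is given. Purified CD4 T cells spent 6 days in IL-7, a cytokine that keeps resting T cells alive, either without tamoxifen (IL-7 sufficient) or with it (IL-7 deficient). Some then spent 3 more days under Th17 polarizing culture, towards the helper cells that make IL-17 (sufficient and deficient Th17 cells). Each of the 4 groups held 4 libraries of poly(A) RNA, whose names end in the same 4 numbers. BASAL955, BASALTAM955, D3955 and D3TAM955, for example, are the IL-7 sufficient, the IL-7 deficient and then the corresponding Th17 libraries of 1 number. The labels give 1 of the 4 numbers as female and 3 as male, but they do not say that a number is a mouse. The p-values therefore measure the spread between these libraries, part of which may be technical. Tamoxifen went with the deletion in every comparison, and 0 libraries had tamoxifen and unfloxed alleles. Deletion and tamoxifen cannot be told apart.

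Sin3A is a scaffold protein with no DNA-binding domain of its own. Sequence-specific repressors bring it to promoters, where it holds the histone deacetylases HDAC1 and HDAC2. Tet1 encodes a dioxygenase that oxidizes 5-methylcytosine, the first step of active DNA demethylation, and its protein has been found in complexes with Sin3A. Kdm5a encodes a JmjC-domain demethylase that removes methyl groups from lysine 4 of histone H3, a mark of active promoters, and it too has been found with Sin3A complexes. The 3 genes therefore stand for the scaffold and for a DNA-modifying and a histone-modifying partner of it.

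The unit is the authors' normalized read count, that is, reads divided by a size factor of the library. The deposited values had lost their decimal points, and they were restored as described under the processing. Each library held between 19754418 and 29025747 restored reads. BASAL960, an IL-7 sufficient library, stood furthest from its group. Over tested entries averaging at least 50 normalized counts, its mean absolute log2 deviation was 0.240, against 0.0851 to 0.198 in the other libraries. Cd3e and Cd4, which mark CD4 T cells, averaged between 5268 and 12179 normalized counts in every group. Of 6 B cell markers, 3 had values, and their sum ran from 311 to 1004 in IL-7 sufficient and 125 to 210 in IL-7 deficient libraries, and 136 to 326 and 60.8 to 185 in the corresponding Th17 libraries. Of the 3, only Blk passed as lower between deficient and sufficient IL-7 cells, at -2.50 on the log2 scale. Its means there were 68.6 in deficient and 414 in sufficient cells. Between deficient and sufficient Th17 cells only Cd79b passed as lower, at -1.56. The part of these B cell markers in the results was not tested. In these bulk libraries, fewer cells of a type and less RNA per cell cannot be told apart. Of the 13903 table entries tested, each the values of 1 gene with or without a name, 56.6% passed the test between deficient and sufficient Th17 cells, 4.48% between deficient and sufficient IL-7 cells, and 38.2% for the difference between those 2 effects. Th17 against IL-7 cells gave 77.2% in sufficient and 78.6% in deficient cells.

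The stretches of genome just ahead of the annotated starts are shown because they show how rich in CG each start is. Sin3a, Tet1 and Kdm5a all lay lower in Th17 than in IL-7 cells, but the source of sequences held only 2 of these genes. Kdm5a had no entry there, so no stretch is given for it. The stretches come from RefSeq, build GRCm38.p6, and the authors' reads were aligned to NCBIM37, an earlier build. Both Sin3a starts (plus strand) are given with 250 bases before the start, at chr9:57071790-57072039 and chr9:57076126-57076375. For Tet1 (minus strand) the first 62 bases of its window are given, at chr10:62887513-62887574, because the annotation of the same build places an exon of the transcript Tet1-210 in the rest. The sequences read 5′ to 3′ along the gene, with CG dinucleotides in capitals:
Sin3a, first start: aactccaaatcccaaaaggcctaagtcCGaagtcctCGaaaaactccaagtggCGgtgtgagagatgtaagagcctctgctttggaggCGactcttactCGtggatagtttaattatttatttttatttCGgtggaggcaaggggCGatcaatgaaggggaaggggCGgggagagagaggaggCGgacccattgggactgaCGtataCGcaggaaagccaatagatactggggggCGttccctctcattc
Sin3a, second start: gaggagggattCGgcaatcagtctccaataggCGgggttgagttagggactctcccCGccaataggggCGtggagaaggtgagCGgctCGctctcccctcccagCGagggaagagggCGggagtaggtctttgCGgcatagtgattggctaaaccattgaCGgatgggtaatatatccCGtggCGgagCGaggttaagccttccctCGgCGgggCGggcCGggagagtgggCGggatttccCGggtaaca
Tet1: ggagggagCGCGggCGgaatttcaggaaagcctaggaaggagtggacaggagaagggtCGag

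Over the full 250 bases, the first Sin3a window held 12 CG, the second 19 and the Tet1 window 15. The median over 32851 such windows was 6, and 66.5%, 80.3% and 72.7% of windows held fewer CG than these 3. All 3 therefore lay in the CG-rich part of the distribution. The first Sin3a window overlaps an exon of Gm10658, an antisense gene on the other strand, and the second lies in an intron of Sin3a transcripts that start further upstream. The motif GGGCGG, searched on both strands like the others, occurred 1, 3 and 1 times in the 3 full windows, and 32.7% of all windows hold it. CCAAT occurred 2 and 3 times in the Sin3a windows and 0 times in that of Tet1, against 33.8% of windows with at least 1. CACGTG and CGCGAAA occurred in none of the 3, and 6.02% and 0.703% of windows hold them.

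**Figure D1:**
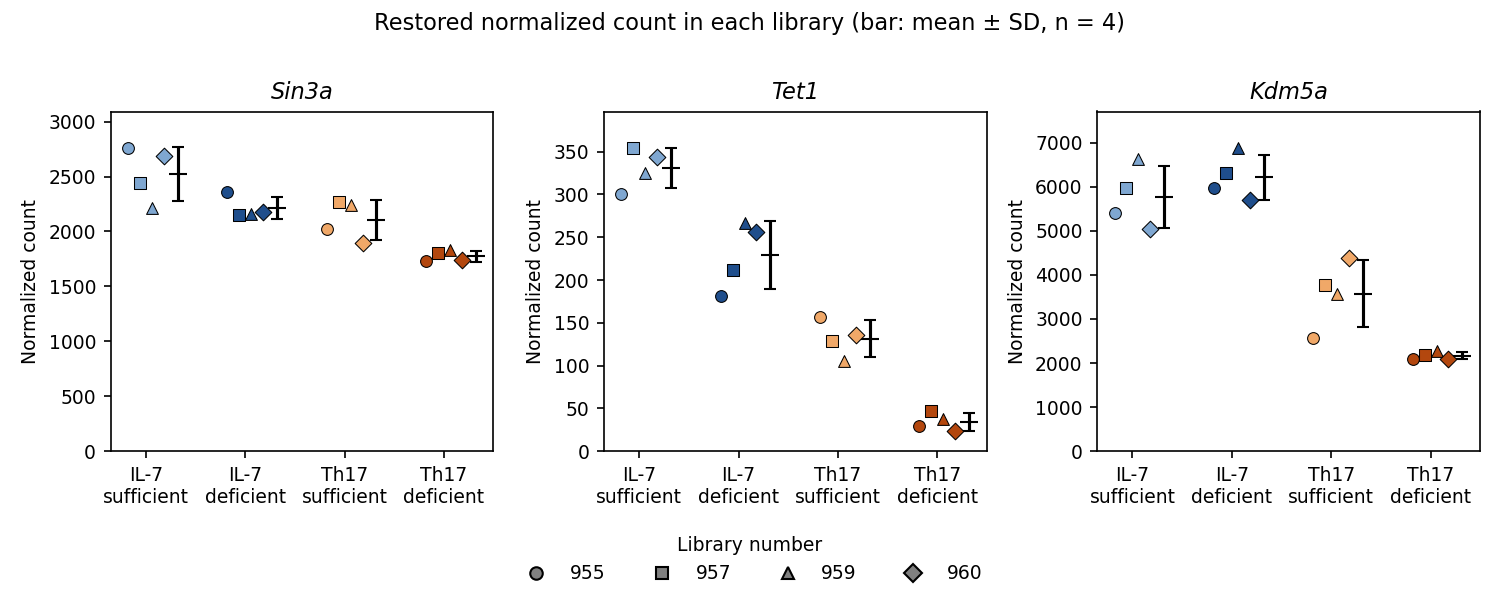
Restored normalized count of Sin3a, Tet1 and Kdm5a (linear axes from 0) in each of the 16 libraries by group, with the library number as the symbol and the bar as mean ± SD (n = 4). The Tet1 libraries form 4 separate tiers from 354 down to 23.3. The Sin3a values of Th17 deficient libraries lie below those of every other group, which overlap. Kdm5a is lowest and tightest in Th17 deficient libraries. The share of all entries whose groups separate was not counted.

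The targeted gene, Sin3a (ENSMUSG00000042557), changed little. Its normalized counts in the IL-7 sufficient libraries BASAL955, BASAL957, BASAL959 and BASAL960 were 2761, 2438, 2213 and 2686. In the IL-7 deficient libraries, in the same order of numbers, they were 2358, 2148, 2164 and 2177. These ranges overlapped, and the first number gave the highest value in both. The means were 2524 ± 249 and 2211 ± 98.2 (SD, n = 4 each), and deficient minus sufficient came to -0.19 on the log2 scale (SE 0.08, 95% interval -0.35 to -0.03, limma adjusted p = 0.184), which is not past the threshold.

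After Th17 polarization, Sin3a stood at 2020, 2271, 2240 and 1892 normalized counts in the sufficient libraries of the same numbers. The deficient libraries gave 1727, 1806, 1827 and 1737. The highest deficient value was thus under the lowest sufficient one, by a small margin, and the share of all entries with such a separation was not counted. The means were 2106 ± 181 and 1774 ± 49.8 (SD, n = 4 each), and Sin3a fell by 0.24 on the log2 scale with an SE of 0.08 (limma adjusted p = 0.0114), which is 0.845 times the sufficient level. When BASAL957 and the other 3 libraries of its number were left out, the call was lost at -0.21 (limma adjusted p = 0.0950), and with upper-quartile scaling it was -0.37 (limma adjusted p = 0.000312).

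Which exons were floxed is not given in the sources used here, and the count covers the whole gene, exons outside the deleted part included. The Sin3a values therefore do not check the deletion. The Sin3a deletion effect in Th17 cells minus that in IL-7 cells was -0.06 with an SE of 0.11 (95% interval -0.28 to 0.17, limma adjusted p = 0.708). Sin3a was also lower in Th17 than in IL-7 cells. Polarization changed its log2 level by -0.26 in sufficient cells (SE 0.08, limma adjusted p = 0.00491) and by -0.32 in deficient cells (SE 0.08, limma adjusted p = 0.00104). BASAL955 and BASAL960 were the highest Sin3a libraries of all. Without the number of BASAL955 the change in sufficient cells was -0.20 (limma adjusted p = 0.0522), and without that of BASAL960 it was -0.18 (limma adjusted p = 0.0599).

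Tet1 (ENSMUSG00000047146) stepped down from group to group. In the order of numbers used for Sin3a, IL-7 sufficient libraries gave 300.2, 354, 325 and 343 normalized counts, and IL-7 deficient libraries gave 182, 212, 267 and 256. Th17 sufficient libraries gave 157, 129, 105 and 135, and Th17 deficient libraries 29.0, 47.5, 37.4 and 23.3. No 2 groups overlapped, and IL-7 sufficient cells came first, then IL-7 deficient cells, and Th17 deficient cells last. The share of all entries whose groups separate in this way was not counted. The group means were 331 ± 23.6, 229 ± 39.5, 132 ± 21.3 and 34.3 ± 10.6 (SD, n = 4 each). Relative to the first of these, the later groups stood at 69.3%, 39.8% and 10.4%. The Th17 deficient values rested on 27 to 57 reads per library and the IL-7 sufficient ones on 279 to 455, so the lowest group is the least precise.

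Between deficient and sufficient Th17 cells, Tet1 fell by 1.94 on the log2 scale with an SE of 0.19 (95% interval -2.35 to -1.53, limma adjusted p = 3.5e-07), to 0.260 times the sufficient level. Between deficient and sufficient IL-7 cells its level was 0.687 times as high, or -0.54 on the log2 scale (SE 0.19, 95% interval -0.95 to -0.13). That did not pass over all genes (limma adjusted p = 0.131, unadjusted p = 0.0127). In this comparison 2568 of the 13903 entries had an unadjusted limma p under 0.05. Fitted to the restored reads with limma's voom, the Tet1 change was -0.55 and passed (limma adjusted p = 0.0300). Without BASAL960, the library furthest from its group, the change was -0.52 (limma adjusted p = 0.228).

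The Tet1 deletion effect was larger in Th17 than in IL-7 cells. The difference, Th17 minus IL-7, was -1.40 on the log2 scale with an SE of 0.27 (95% interval -1.98 to -0.82, limma adjusted p = 0.000816). It was -1.42 without BASAL960 (limma adjusted p = 0.00114). Over polarization, Tet1 fell in both genotypes, with log2 changes of -1.33 in sufficient cells (SE 0.19, limma adjusted p = 7.2e-06) and -2.74 in deficient cells (SE 0.19, limma adjusted p = 7.8e-10). These are 0.397 and 0.150 times the IL-7 level of the same genotype.

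Kdm5a (ENSMUSG00000030180) fell over polarization and fell again with the deletion there, but not in IL-7 cells. IL-7 sufficient libraries gave 5402, 5975, 6639 and 5050 normalized counts, and IL-7 deficient libraries gave 5973, 6320, 6880 and 5697. These groups overlapped, and BASAL959 and BASALTAM959 were highest and BASAL960 and BASALTAM960 lowest. Th17 sufficient libraries gave 2573, 3768, 3565 and 4386, a wide spread, and Th17 deficient libraries 2099, 2177, 2269 and 2099. The Th17 sufficient libraries lay below every IL-7 library and above every Th17 deficient one. How many of all entries separate in this way was not counted. The group means were 5767 ± 695, 6218 ± 510, 3573 ± 753 and 2161 ± 80.9 (SD, n = 4 each). Th17 deficient cells thus kept 37.5% of the mean of IL-7 sufficient cells.

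With the deletion in Th17 cells, Kdm5a fell by 0.70 on the log2 scale with an SE of 0.12 (limma adjusted p = 0.000125), to 0.616 times. In IL-7 cells its log2 change, 0.11 (SE 0.12, 95% interval -0.15 to 0.37), did not pass (limma adjusted p = 0.696). The deletion effect on Kdm5a in Th17 cells minus that in IL-7 cells was -0.81 with an SE of 0.17 (95% interval -1.18 to -0.44, limma adjusted p = 0.00163). Over polarization its log2 change was -0.71 in sufficient cells (SE 0.12, limma adjusted p = 5.1e-05) and -1.52 in deficient cells (SE 0.12, limma adjusted p = 4.2e-09). Those falls left 0.612 and 0.348 times the IL-7 level.

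**Figure D2:**
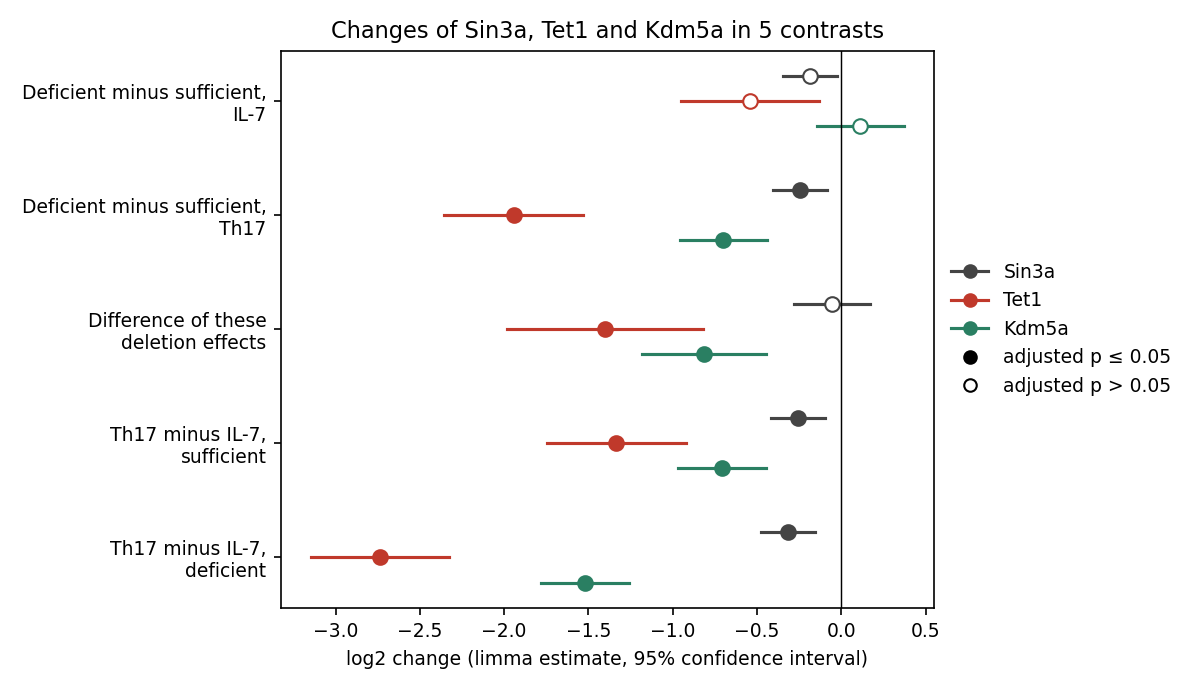
limma log2 change of each gene (x axis) with its 95% interval in the 5 contrasts, filled where the adjusted p is at most 0.05. Tet1 and Kdm5a are filled in every contrast except deficient against sufficient IL-7 cells, and Sin3a lies nearer to 0 than both in the other 4 contrasts.

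Set against all entries, all 3 genes passed as lower between deficient and sufficient Th17 cells, where 54.3% of the entries with a name passed in that direction. Every name belongs to a gene that the authors list as lower there, so the direction of a named gene in that comparison is fixed by its name. In the authors' deposited table the log2 fold changes are -1.94 for Tet1, -0.73 for Kdm5a and -0.25 for Sin3a. None of the 3 passed between deficient and sufficient IL-7 cells, where 3.46% of named entries were lower and 0.671% higher. Tet1 and Kdm5a, but not Sin3a, passed as lower for the difference of both effects, against 34.1% of named entries (0.313% passed as higher). All 3 were lower over polarization in sufficient cells, against 35.8% of named entries (40.6% passed as higher), and in deficient cells, against 50.4% (28.2% higher). These comparisons share libraries with one another, so they are not separate evidence.

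Ratios of libraries with the same number show how the changes spread. For deficient over sufficient Th17 cells, the log2 ratio of Tet1 ran from -2.49 to -1.42 over the 4 numbers, that of Kdm5a from -1.06 to -0.29 and that of Sin3a from -0.33 to -0.12. Every one of these 12 ratios was below 0, but the authors list every named gene as lower in this comparison, so that direction was largely given. In IL-7 cells the ratios ran from -0.74 to -0.29 for Tet1 and from -0.30 to -0.03 for Sin3a, and from 0.05 to 0.17 for Kdm5a. Tet1 was thus lower in 4 of 4 numbers in both cell states. Kdm5a was slightly higher in 4 of 4 before polarization and lower in 4 of 4 after it. The share of all entries that keep 1 direction in all 4 numbers was not counted. The Tet1 ratios in Th17 cells fell into a pair (-1.42 for D3TAM957 and -1.47 for D3TAM959, each over its sufficient partner) and a pair of -2.40 for D3TAM955 and -2.49 for D3TAM960. For Kdm5a the ratio nearest to 0, -0.29, was that of D3955, the lowest sufficient library (2573), and the ratio furthest from 0, -1.06, was that of D3960, the highest (4386).

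**Figure D3:**
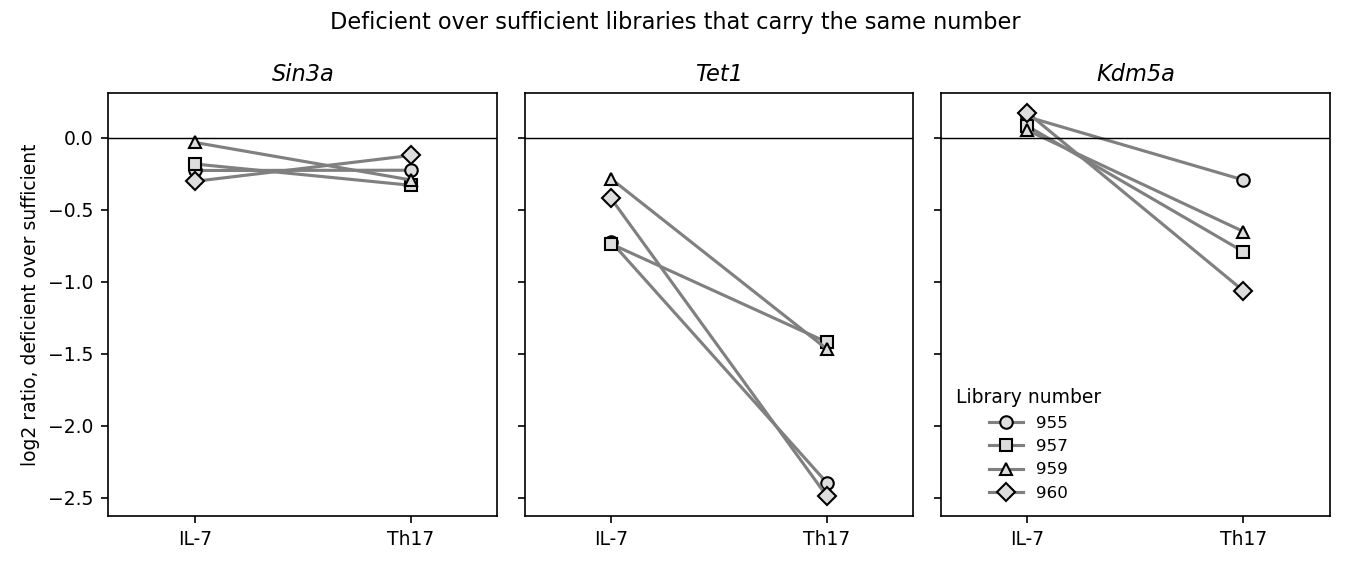
log2 ratio of deficient over sufficient libraries with the same number (y axis) in IL-7 and Th17 cells, with a line for each number. All lines of Tet1 and Kdm5a slope down towards Th17 cells, and those of Sin3a cross between -0.33 and -0.03.

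Markers of T cells and of other cells also differed between the groups. Of 11 T cell markers, 7 had values, and their sum ran from 67638 to 77092 in IL-7 sufficient and 63335 to 68628 in IL-7 deficient libraries, and 55712 to 59859 and 34302 to 37962 in the corresponding Th17 libraries. Only genes that the authors list as lower in deficient Th17 cells have names, so the direction of the markers with values was largely given there. Of these 7, 6 passed as lower between deficient and sufficient Th17 cells, beside 54.3% of all named entries. Between deficient and sufficient IL-7 cells 0 of the 7 passed, where 3.46% of named entries were lower. Over polarization 5 of the 7 were lower and 1 higher in sufficient cells (35.8% and 40.6% of named entries), and 6 lower and 1 higher in deficient cells (50.4% and 28.2%). The higher one was Cd2, an adhesion receptor of T cells named here after its values were seen, with log2 changes of 0.80 and 0.29. The 5 lower ones in sufficient cells were Trat1 (-3.79), Cd3e (-0.72), Cd4 (-0.58), Lck (-0.54) and Cd3d (-0.52). In deficient cells the 7 changes ran from -3.51 to 0.29, with a median of -1.04. Of 3 markers of CD8 T cells 2 had values, and their sum ran from 430 to 638 and 351 to 538 in IL-7 sufficient and deficient libraries, and from 231 to 519 and 113 to 196 in the Th17 ones. Among these, Cd8b1 fell by 0.84 with the deletion in Th17 cells (limma adjusted p = 0.000539). Over polarization of sufficient cells the 2 went opposite ways, with log2 changes of 1.44 for Cd8a and -1.42 for Cd8b1. Of 4 NK cell markers only Klrk1 had values, restored below the posterior limit and so not tested, at 137 to 409 and 11.4 to 90.8 in IL-7 sufficient and deficient libraries, and 706 to 1242 and 408 to 657 in the Th17 ones. Of 7 myeloid markers only Flt3 had values, under the same limit, at 1.90 to 37.8 over all 16 libraries. The part of all these markers in the results for Sin3a, Tet1 and Kdm5a was not tested.

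The other genes of the Sin3-HDAC complex were read from a list of 23, of which 8 are named in the authors' deposited table, Sin3a, Tet1 and Kdm5a included, and all 8 were tested. Genes absent from that table, among them Hdac1, Hdac2 and Sin3b, have no value here. Of the 8, 6 were lower and 2 did not pass between deficient and sufficient Th17 cells, with a median log2 change of -0.37 against -0.41 over all named genes, of which 54.3% passed as lower. Morf4l1, which encodes a chromodomain subunit, fell by 0.61, and Ogt, the O-GlcNAc transferase that binds both Sin3A and Tet proteins, fell by 0.48. Phf12, a PHD-finger subunit, fell by 0.27. Brms1l and Fam60a, further subunits, had log2 changes of -0.20 and -0.27 and did not pass. With the deletion in IL-7 cells, 0 of 8 passed. Over polarization 5 were lower and 2 higher in sufficient cells, where 35.8% of named entries were lower and 40.6% higher, and 7 lower and 1 higher in deficient cells, where the shares were 50.4% and 28.2%.

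Of 14 genes of DNA methylation and 5-methylcytosine oxidation, 7 had values, and 6 of the 7 were lower between deficient and sufficient Th17 cells (median log2 change -0.38). Over all named genes, each listed by the authors as lower there, 54.3% passed as lower and the median was -0.41. Tet2, the paralog of Tet1 that acts on the same base, fell by 1.67, beside 1.94 for Tet1. Both enzymes took opposite courses over polarization of sufficient cells. Tet2 averaged 1409 ± 185 normalized counts in IL-7 sufficient and 1368 ± 170 in IL-7 deficient cells, 4758 ± 1814 in Th17 sufficient and 1394 ± 240 in Th17 deficient cells (SD, n = 4 each). It rose by 1.65 on the log2 scale over polarization of sufficient cells (limma adjusted p = 9.6e-06), and its log2 change in deficient cells was 0.02, which did not pass. Its deletion effect differed between Th17 and IL-7 cells by -1.63 (limma adjusted p = 0.00160), beside -1.40 for Tet1. So Tet1 fell in both genotypes over polarization and Tet2 rose in sufficient cells.

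Of the genes that write or read DNA methylation, Dnmt3a, a de novo methyltransferase, fell by 0.53 with deletion in Th17 cells, and its effect differed from that in IL-7 cells by -0.48. Dnmt3b, the other de novo enzyme, fell by 0.37 in Th17 cells but was close to the threshold (limma adjusted p = 0.0480), and it lost its call in 18 of 31 alternative settings. Tdg, the glycosylase that removes oxidized methylcytosine, fell by 0.38, and Uhrf2, which binds hydroxymethylated DNA, by 0.25. Apobec1, a cytidine deaminase, had a log2 change of -0.29 and did not pass, but over polarization it fell, with log2 changes of -3.72 in sufficient and -3.66 in deficient cells. With the deletion in IL-7 cells, 0 of the 7 passed.

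Of 24 histone lysine demethylases, 14 had values, and 7 were lower and 7 did not pass between deficient and sufficient Th17 cells (median log2 change -0.33). Among all named genes 54.3% passed as lower there, with a median of -0.41. Jarid2, a JmjC protein without demethylase activity that works with Polycomb complex 2, fell by 1.08, and Kdm5a by 0.70. Kdm8, Jmjd6, Kdm7a, Phf2 and Kdm2a fell too, with log2 changes of -0.54, -0.43, -0.43, -0.36 and -0.23. Kdm5c, a paralog of Kdm5a, had a log2 change of -0.25 and did not pass, as did Kdm6a at -0.56, Mina at -0.29, Jmjd1c at -0.21, Kdm3a at -0.15, Kdm2b at -0.07 and Kdm4c at 0.00. Kdm6a passed in 8, Mina in 4 and Kdm5c in 1 of 31 alternative settings. With the library number as a block, Kdm6a (limma adjusted p = 0.000184) and Kdm5c (limma adjusted p = 0.00938) passed at the same log2 changes. The labels give 1 of the 4 numbers as female and 3 as male, and both genes lie on the X chromosome. In contrast to Kdm5a, Jarid2 rose over polarization, by 1.85 in sufficient and by 0.78 in deficient cells. Kdm7a, which removes methyl groups from lysines 9 and 27 of histone H3, fell over polarization, with changes of -1.97 and -2.46 on the log2 scale. With the deletion in IL-7 cells, 0 of 14 passed.

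**Figure D4:**
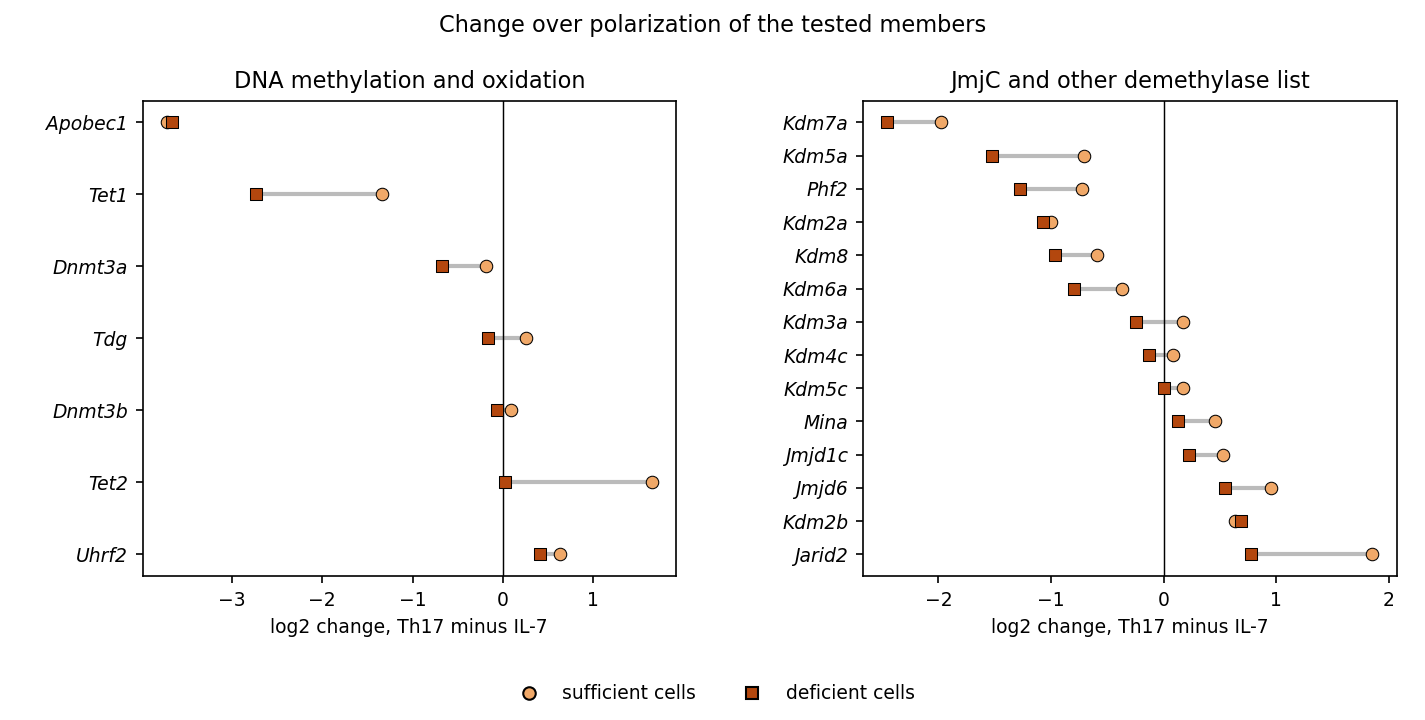
log2 change from IL-7 to Th17 cells (x axis) of the tested genes of DNA methylation and oxidation (left) and of the demethylase list (right), with circles for sufficient and squares for deficient cells. Tet1 and Kdm5a lie left of 0 in both and further left in deficient cells, whereas Tet2 and Jarid2 lie right of 0 in sufficient cells.

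Across 7 lists of chromatin genes, 151 genes counted once, 77 were listed by the authors and 76 tested, and 42 of these (55.3%) passed as lower between deficient and sufficient Th17 cells. That is close to the 54.3% of all named entries. Among the 76, ordered from the lowest log2 change in that comparison, Tet1 ranked 2, Kdm5a 12 and Sin3a 47. Only Rcor2, a CoREST subunit, had a lower value than Tet1 (-2.64). For the difference of both deletion effects, 31 of the 76 (40.8%) were lower and 0 higher, beside 34.1% of named entries, and Tet1 ranked 3, Kdm5a 11 and Sin3a 65. Against all named genes, 4.50% had a lower log2 change than Tet1 between deficient and sufficient Th17 cells, 31.1% a lower one than Kdm5a and 67.9% a lower one than Sin3a. In IL-7 cells 10.7% lay below Tet1, 29.0% below Sin3a and 79.8% below Kdm5a.

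The remaining lists give the setting, and their counts stand beside the 54.3% of all named entries that passed as lower between deficient and sufficient Th17 cells. Among 17 tested histone methyltransferases 9 were lower between deficient and sufficient Th17 cells, led by Smyd2 (-0.95), Suv420h1 (-0.93) and Kmt2e (-0.59), with a list median of -0.23 against -0.41 over all named genes. Among 7 tested histone deacetylases outside the Sin3 complex 5 were lower, led by the mitochondrial sirtuin gene Sirt4 (-1.24) and by Hdac7 (-1.22) and Sirt6 (-0.77), with a median of -0.76. Among 13 tested NuRD, CoREST and NCoR genes 8 were lower, led by Rcor2 (-2.64), Mier1 (-1.09) and Mta3 (-0.67), with a median of -0.29. Among 12 tested factors that recruit Sin3, 3 were lower, Rest with -0.43 first among them, Mxd1 (-0.38) and Sfmbt1 (-0.33) did not pass, and the median was -0.16. In IL-7 cells the only 2 of the 76 to pass were Smyd2 at -0.65 and Mxi1, a Sin3-binding partner of Max, at 0.46. The call was lost in 3 of 31 alternatives for Smyd2 (limma adjusted p up to 0.163) and in 9 of 31 for Mxi1 (limma adjusted p up to 0.223).

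The named genes whose levels followed each member most closely were taken by Pearson's r of log2 values over the 16 libraries, among 5287 genes averaging at least 50 normalized counts. For Kdm5a these were Atp2b1 (r = 0.990), Socs4 (0.988), Tlk2 (0.987), Cdc40 (0.987) and Rprd2 (0.987). Once group means were removed, Kdm5a and Atp2b1 still gave 0.92. For Tet1 they were Msra (0.982), Tcf7l1 (0.982), Pex2 (0.981), Nsmaf (0.979) and Tm2d1 (0.978), and r with Msra was 0.64 without group means. For Sin3a they were Il27ra (0.944), Mboat1 (0.925), Sh3gl1 (0.913), Ewsr1 (0.912) and Asah2 (0.910), and r with Il27ra was 0.71 without group means.

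Among the members themselves, r was 0.906 for Tet1 with Kdm5a, 0.842 for Sin3a with Tet1 and 0.736 for Sin3a with Kdm5a. After removal of group means these were -0.05, -0.18 and -0.34. The libraries share their size factors, groups and numbers, so these r values describe the 16 libraries and carry no test. Each member, like each of the 5287 candidates, carries a name, and the authors list every named gene as lower in deficient Th17 cells. The members also all fell over polarization, so a high r among them over the 4 groups was partly given by these falls. Whether they go together from library to library within a group was not tested.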

How the data were processed

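The submitters' processing notes name Trim Galore 0.4.4, STAR 2.6, featureCounts, edgeR, DESeq2 and the build NCBIM37. How these were set is not given in the sources used here. Per the file headers, the 1 deposited table gives the authors' mean normalized count (a signal), log2 fold change, its standard error, test statistic (a score), p-value and adjusted p-value for 8552 genes. Beside them stand 16 columns of normalized counts, 1 with a letter missing in its name that was matched to BASALTAM959.

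The deposited columns have lost their decimal points and do not follow the order of the names. Each value is whole reads times 1 step per library, which held for 99.993% of 275004 nonzero values (relative tolerance 2e-09). Powers of 10 were set so that the 4 libraries of a group agreed best, and 14204 of 17850 entries (79.6%) reached a posterior of 0.95 in every group, or were settled by the name in Th17 cells. A name was joined to the entry that gives the authors' log2 fold change within 1e-06, the next entry differing at least 20 times more (8007 names joined, and 3 of 1000 decoys). For Sin3a, Tet1 and Kdm5a it differed at least 8710 times more. Powers of 10 were raised in 3 of the 4 Sin3a values in IL-7 deficient cells and in 5 other values of the 3 genes, at posteriors of at least 0.9986.

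limma 3.58.1 (R 4.3.3) was fitted to log2(normalized count + 1) of settled entries averaging at least 5, over all 16 libraries and 4 group means, with Benjamini-Hochberg adjustment over 13903 entries and a threshold of 0.05. This scale understates the change of low genes. Restoring and fit were tested on simulated data. The members and gene lists were chosen with earlier results of these data known. The complex, DNA methylation and demethylase lists are given gene by gene, the other lists by their 3 largest changes. Alternatives were other pseudocounts, filters and scalings, voom, all entries, a replicate block, only the groups compared, and each library and number left out. Same-numbered IL-7 sufficient and deficient libraries deviated together (r 0.210 to 0.617). In the other pairs of groups the lowest r was under 0.1, although most same-numbered libraries exceeded it (Th17 sufficient and deficient 0.0351 to 0.303, 3 of 4 closest to their own number), so the block is an alternative only.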

Additional observations from a re-analysis of the deposited data

Results flagged for a closer look

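In IL-7 deficient cells the highest of the 4 Sin3a values, 2358 in BASALTAM955, lay apart from the other 3, which ran from 2148 to 2177. It was the only one of 12 groups of 4 member values with such a gap, and chance gives about 1 in 20. The power of 10 was restored in 3 of these 4 values.

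The deletion effect in Th17 cells differed from that in IL-7 cells by -1.40 on the log2 scale for Tet1 (limma adjusted p = 0.000816), with a lower ratio in Th17 than in IL-7 cells in 4 of 4 numbers. For Kdm5a the difference was -0.81 (limma adjusted p = 0.00163), again in 4 of 4 numbers. Both use the Th17 libraries by which the names were assigned, and 34.1% of named genes passed in this direction.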

How the results depend on the processing

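In all 31 alternatives Tet1 and Kdm5a kept direction and call for the deletion in Th17 cells (-2.12 to -1.76 and -0.85 to -0.58 on the log2 scale) and over polarization, and in all 30 for the difference of the deletion effects (-1.64 to -1.18 and -0.96 to -0.67). The replicate block changed no call of the 3 genes; with it, 910 entries passed between deficient and sufficient IL-7 cells against 623, and Tet1 there stood at -0.54 (limma adjusted p = 0.128). Only limma voom called that Tet1 change, at -0.55 (limma adjusted p = 0.0300).

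With 1 library or 1 number left out, the Sin3a change ran from -0.29 to -0.21 in Th17 cells, from -0.35 to -0.18 over polarization of sufficient cells, and from -0.14 to 0.011 for the difference of the effects, above 0 without BASAL959 or without its number. The entries passing between deficient and sufficient IL-7 cells ran from 59 (without the number of BASAL957) to 730, with 157 when the number of BASAL959 was left out, 253 for BASALTAM957 alone, 318 for BASALTAM955, 337 for BASAL957 and 373 for BASALTAM959, and those for the difference from 3201 (without the number of BASAL957) to 5759. Of the genes that did not pass in Th17 cells, Kdm2b ran from -0.17 to 0.0066 and Kdm4c from -0.037 to 0.037, and Kdm4c was -0.021 with median-of-ratios size factors and -0.13 with upper-quartile scaling. Upper-quartile scaling moved the median of all entries to -0.16 in the Th17 comparison (main -0.03) and the share of lower among called entries from 49.7% to 62.3%, and for the difference of the effects from 46.5% to 62.2%. The cause was not tested. Depth limits Tet1 in Th17 deficient cells most, at 27 to 57 reads.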
